A study of Rattus norvegicus with 32 samples.

Results

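Glucose, lactate and amino acid transporters were followed here through 8 comparisons of injured with uninjured rat muscle. They are the solute carriers whose rat gene symbols begin with Slc1a, Slc2a, Slc3a, Slc7a, Slc16a or Slc38a, and the rule found 58 of the 16411 genes with a symbol, on 65 of the 18281 RefSeq transcripts of the deposited table. The prefix also takes in Slc7a6os, which is no transporter but the gene next to Slc7a6 on the other strand. Rats of strain HSD (Sprague Dawley in the study's methods) received a punch defect in the tibialis anterior muscle, a volumetric muscle loss (VML), and bulk RNA was sequenced at 14 or 3 days post injury (DPI). The defect was filled with decellularized skeletal muscle and minced muscle together (DSM+MM), with the decellularized scaffold alone (DSM) or with the minced graft alone (MM), or it was left unrepaired (VML), and each group is written with its day, as in DSM+MM14. The minced muscle was the animal's own biopsied tissue, the scaffold was rat tibialis anterior stripped of its cells, and the reference was uninjured muscle of the opposite limb of the same day. The labels give 3 libraries for each of the 8 injured groups and 4 uninjured libraries per day, 32 in all. Some injured and uninjured muscles may therefore be the 2 legs of a single rat, which the tests do not take into account. All limbs had their force measured under nerve stimulation before tissue was taken.

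Cells move glucose down its gradient through the Slc2a (GLUT) family and move lactate, pyruvate and related acids through the Slc16a (MCT) family. Amino acids enter by sodium-coupled uptake (Slc1a and Slc38a), which can concentrate glutamine, serine or glutamate in the cell. Many Slc7a members, though not all, work by exchange, which trades one amino acid for another and often needs an Slc3a heavy chain. Resting muscle fibres are known for the insulin-responsive GLUT4 and the lactate exporter MCT4, and activated immune cells and dividing cells for GLUT1, the large neutral amino acid exchanger LAT1 and the cystine importer xCT.

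Each transcript of the table has a log2 fold change per injured group relative to uninjured muscle, with an F, a p and a p adjusted over all 18281 transcripts, and a gene was called when its adjusted p in the edgeR fit was under 0.05. Standard errors (SE) were derived from the fold changes and their F, and single libraries and their depth were not analysed here, which leaves the spread between animals unshown. The tissue punch spans the edge of the defect, so fibres, immune cells and scar are measured together, and in such bulk tissue fewer cells of a type and less RNA per cell cannot be told apart. All 8 macrophage markers were higher in each group at 3 DPI, with median log2 fold changes of 5.09 in DSM+MM3, 5.22 in DSM3, 5.02 in MM3 and 4.70 in VML3. At 14 DPI the same medians were 4.99 in DSM+MM14, 4.53 in DSM14, 2.28 in MM14 and 1.98 in VML14, with 8, 7, 0 and 0 of the 8 markers called in that order. Muscle fibre markers gave medians of -1.07 in DSM+MM3, -1.53 in DSM3, -2.43 in MM3 and -1.25 in VML3, with 0, 3, 7 and 0 of the 9 markers with counts called lower in that order, and none of them passed at 14 DPI. Fibroblast markers had medians of 5.22 in DSM+MM14 and 4.33 in DSM14 with 5 of 5 higher in each, of 3.03 in MM14 and 3.28 in VML14 with 0 and 1 higher, and of 3.14 to 3.64 at 3 DPI with 4 or 5 higher. T cell markers were higher for 4 of 4 genes in DSM14, DSM+MM3, DSM3 and MM3 and for 2 of 4 in DSM+MM14 and VML3, with medians of 3.18 to 4.47 in these 6 groups, and for none in MM14 and VML14. Erythrocyte markers (4 of 4) and neutrophil markers (5 of 5) were higher in DSM3, and adipocyte markers (4 of 4) in DSM+MM14. How far these cell markers account for the transporter values was not tested.

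Transporters were called in both directions at 3 DPI, and at 14 DPI they were called only in the groups with a scaffold. In DSM+MM14, 14 of the 58 transporters were higher and 2 lower, where 14.6% of all transcripts were higher and 1.81% lower. Each gene is counted by its row of highest average CPM, and 1 of the 2 lower ones, Slc3a2, has another row at 0.47 that was not called. In DSM14, 11 were higher and 4 lower, against 9.49% and 0.733% of all transcripts. No transporter passed in MM14 or VML14, where 0.0109% and 0.503% of all transcripts were higher and 0% and 0.0875% lower, and 12 transporters in MM14 and 9 in VML14 had an unadjusted p under 0.05. At 3 DPI, 11 transporters were higher in DSM+MM3, 15 in DSM3, 18 in MM3 and 12 in VML3, beside 16.3%, 18.2%, 20.1% and 13.8% of all transcripts in that order. Lower transporters numbered 2 in DSM+MM3, 6 in DSM3, 13 in MM3 and 2 in VML3, beside 5.85%, 9.33%, 16.2% and 2.52% of all transcripts. As shares of the 58 genes, the higher ones made up 24.1% in DSM+MM14, 19.0% in DSM14, 19.0% in DSM+MM3, 25.9% in DSM3, 31.0% in MM3 and 20.7% in VML3. The 4 comparisons of a day share their uninjured libraries, so these counts are not independent of each other. Of the 18281 transcripts 14983 had counts, and of the 58 transporters 57. A transcript without counts cannot be called, so the shares of all transcripts are lowered more than those of the transporters. This holds for every share of the 18281 transcripts given here.

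**Figure D1:**
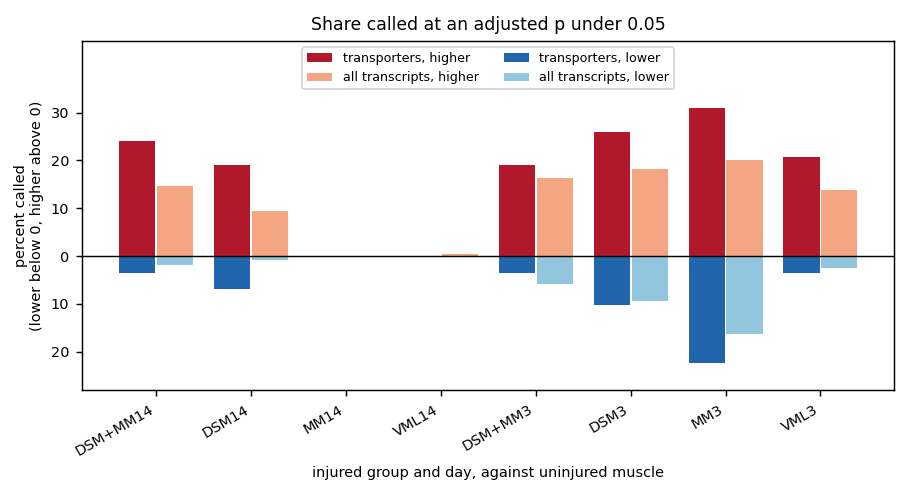
Percent of the 58 transporters and of all 18281 transcripts called at an adjusted p under 0.05 in each comparison, with genes higher in the injured group drawn above 0 and lower ones below 0. The transporter bar for higher genes stands above the bar for all transcripts in 6 of the 8 comparisons, and the longest bar for lower genes is that of MM3 at 22.4%. Only 14983 of the 18281 transcripts had counts, beside 57 of the 58 transporters. Those without counts cannot be called, which lowers the bars for all transcripts more.

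An average of at least 10 CPM (counts of a transcript scaled to the library size, taken by the authors over all libraries) was found for 20 of the 58 transporters, 38 averaged at least 1 CPM, and 37 passed in at least 1 comparison. In all, 10 transporters overlap another protein-coding gene with a row, and without stated use of strand in the counting, reads of the 2 genes cannot be told apart. Of the 38, the median log2 fold change lay close to 0 in every group, from 0.01 in DSM14 to 0.33 in MM3, beside 0.00 in DSM14 and 0.01 in MM3 for the 10851 transcripts at that level. Differences between families were not tested, and the medians rest on few genes and in part on the cutoff at 1 CPM. In the groups with scaffold and graft, the 3 Slc1a genes at that level had a median of 2.91 in DSM+MM14 and 3.12 in DSM+MM3, the 9 Slc2a genes 1.32 in DSM+MM14 and -0.03 in DSM+MM3, and the 10 Slc16a genes -0.12 and -0.09. The 9 Slc3a and Slc7a genes had medians of 0.16 in DSM+MM14 and 0.30 in DSM+MM3, and the 7 Slc38a genes 0.19 and -0.01. A set of 10 transporters was higher in all 4 groups at 3 DPI, among them Slc2a1, Slc2a9, Slc2a10, Slc1a4, Slc1a5, Slc7a5, Slc7a7, Slc7a8 and Slc38a6, and 1, Slc38a2, was lower in all 4. The share of all transcripts called in all 4 groups is not given here. These groups share their uninjured libraries, so such overlap cannot be read as a trait of the transporters.

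**Figure D2:**
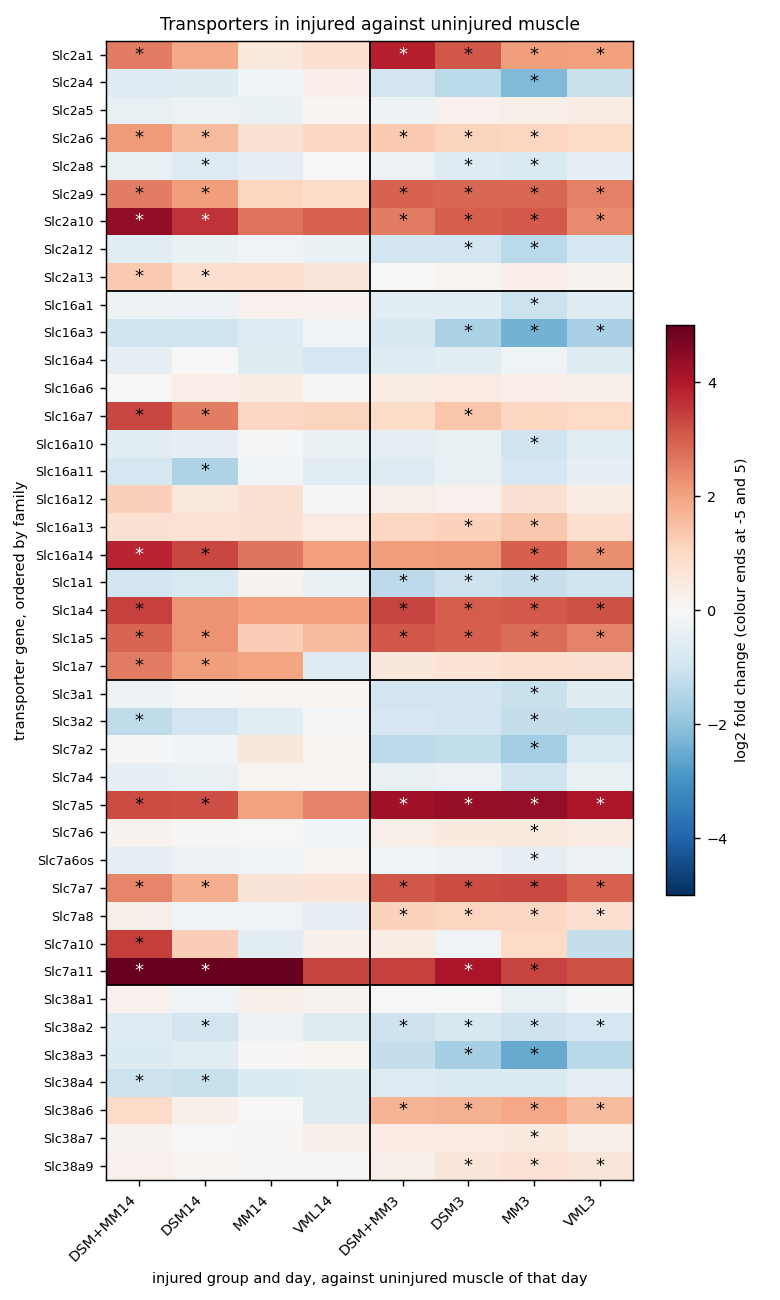
Log2 fold change of 41 transporters (rows, by family) in the 8 injured groups (columns, 14 DPI on the left) against uninjured muscle, red for higher and blue for lower, with an asterisk at an adjusted p under 0.05. Slc7a11 in DSM+MM14 (9.12), DSM14 (6.45) and MM14 (5.58) lies past the colour scale, and Slc7a3 is left out because its fit includes groups without counts.

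Among glucose carriers, the ubiquitous basal transporter GLUT1 was higher in 5 comparisons and the insulin-responsive GLUT4 of muscle fibres was lower in 1. Slc2a1 (GLUT1) had log2 fold changes of 2.56 in DSM+MM14, 1.91 in DSM14, 0.52 in MM14 and 0.82 in VML14, and of 3.90 in DSM+MM3, 3.11 in DSM3, 2.09 in MM3 and 2.05 in VML3, with SEs of 0.616 to 0.648. It was higher in DSM+MM14 (adjusted p = 0.00541) and in all 4 groups at 3 DPI, and in DSM14 it missed the threshold (adjusted p = 0.0527). Slc2a4 (GLUT4) gave -0.65 in DSM+MM14, -0.61 in DSM14, -0.13 in MM14 and 0.32 in VML14, and -0.91 in DSM+MM3, -1.34 in DSM3, -2.21 in MM3 and -1.12 in VML3 on the log2 scale (SEs 0.578 to 0.627). It was lower only in MM3 of these 8 comparisons (adjusted p = 0.00747), which is also the comparison with the most fibre markers called lower. The other fibre-associated glucose carrier, Slc2a12 (GLUT12), was lower in MM3 (-1.36 ± 0.366, log2 fold change ± SE) and DSM3 (-0.97 ± 0.361), and Slc2a8 (GLUT8, found on inner membranes) was lower in DSM14 (-0.63 ± 0.201), DSM3 (-0.63 ± 0.200) and MM3 (-0.74 ± 0.201).

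Less studied members of the GLUT family were also higher in injured muscle. Slc2a10 (GLUT10, whose loss in humans causes arterial tortuosity) had log2 fold changes of 4.43 in DSM+MM14, 3.61 in DSM14, 2.72 in MM14 and 2.96 in VML14, and of 2.58 in DSM+MM3, 3.00 in DSM3, 3.05 in MM3 and 2.37 in VML3 (SEs 0.705 to 0.771). It passed in DSM+MM14, DSM14 and every group at 3 DPI, and in VML14 its adjusted p was 0.0623. The gene Elmo2, which overlaps it in the annotation, had smaller fold changes of 0.61 in DSM+MM14 and 0.90 in DSM3. Slc2a9 (GLUT9, a urate carrier) was higher in the same 6 comparisons, at 2.56 in DSM+MM14, 2.10 in DSM14, 2.95 in DSM+MM3, 2.86 in DSM3, 2.86 in MM3 and 2.53 in VML3, with 1.09 in MM14 and 0.92 in VML14 (SEs 0.468 to 0.487). Slc2a6 (GLUT6, a lysosomal carrier of inflammatory macrophages in mice) was higher in DSM+MM14 (2.14 ± 0.397), DSM14 (1.59 ± 0.398), DSM+MM3 (1.29 ± 0.390), DSM3 (1.12 ± 0.390) and MM3 (1.08 ± 0.389), and gave 0.77 in MM14, 1.04 in VML14 and 0.95 in VML3, and its overlapping neighbour Cacfd1 gave -0.69 in DSM+MM14. Slc2a13 (HMIT, a proton-coupled myo-inositol carrier) was called higher in DSM+MM14 (1.32 ± 0.250) and DSM14 (0.83 ± 0.251) and in no group at 3 DPI. Its values in MM14 (0.81 ± 0.253, close to DSM14) and VML14 (0.61 ± 0.254) were not called. Those at 3 DPI ran between -0.03 and 0.32. The fructose carrier Slc2a5 passed in none of the 8 comparisons and stayed between -0.36 and 0.37, Slc2a2 averaged 0.170 CPM, and Slc2a3 (GLUT3) was listed without counts.

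**Figure D3:**
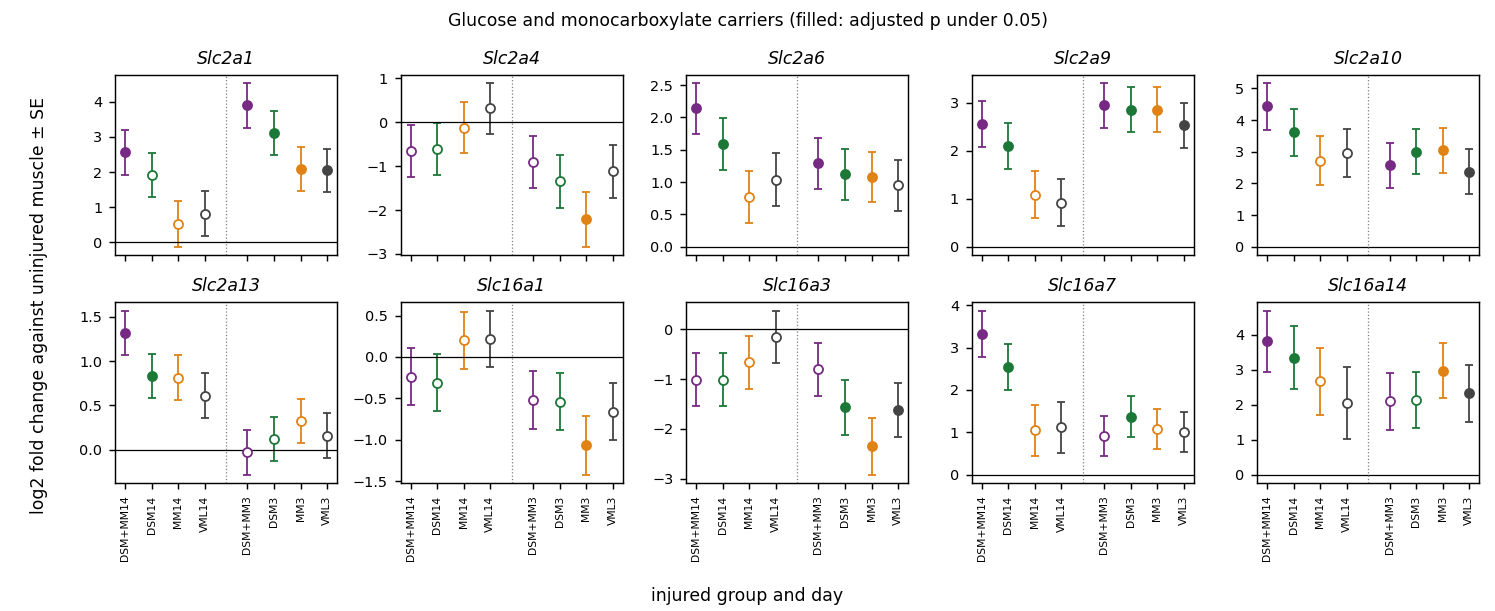
Log2 fold change against uninjured muscle with its SE for 6 glucose carriers and 4 monocarboxylate carriers in the 8 injured groups, 14 DPI left of the dotted line and 3 DPI right of it, filled at an adjusted p under 0.05. Slc2a1 stands highest in DSM+MM at each day (2.56 in DSM+MM14 and 3.90 in DSM+MM3), Slc2a4 and Slc16a3 reach their lowest values in MM3, and Slc16a7 its highest in DSM+MM14.

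The lactate carriers of muscle fibres were lower at 3 DPI in some groups. At 14 DPI the MCT family members Slc16a7 and Slc16a14 were called higher in the groups with a scaffold. Slc16a14 was also called at 3 DPI in MM3 and VML3, which had no scaffold. Slc16a3 (MCT4, which exports lactate from glycolytic fibres) had log2 fold changes of -1.01 in DSM+MM14, -1.01 in DSM14, -0.66 in MM14 and -0.15 in VML14, and of -0.80 in DSM+MM3, -1.57 in DSM3, -2.35 in MM3 and -1.62 in VML3 (SEs 0.523 to 0.566). The last 3 groups passed, with adjusted p of 0.0354 in DSM3, 0.00262 in MM3 and 0.0431 in VML3. Its neighbour Csnk1d, which overlaps it, stayed between -0.23 and 0.10. Slc16a1 (MCT1, the lactate carrier of oxidative fibres and many other cells) was lower in MM3 (-1.07 ± 0.352, adjusted p = 0.0188) and gave -0.52 in DSM+MM3, -0.54 in DSM3 and -0.66 in VML3, and -0.24 in DSM+MM14, -0.31 in DSM14, 0.20 in MM14 and 0.22 in VML14.

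Slc16a7 (MCT2, a carrier with high affinity for pyruvate and lactate) had log2 fold changes of 3.33 in DSM+MM14, 2.54 in DSM14, 1.05 in MM14 and 1.12 in VML14, and of 0.91 in DSM+MM3, 1.37 in DSM3, 1.08 in MM3 and 1.01 in VML3 (SEs 0.476 to 0.604). It was higher in DSM+MM14 (adjusted p = 0.000512), DSM14 (0.00575) and DSM3 (0.0347). The orphan carrier Slc16a14, at an average of 0.909 CPM, was higher in DSM+MM14 (3.81 ± 0.880), DSM14 (3.34 ± 0.906), MM3 (2.97 ± 0.779) and VML3 (2.32 ± 0.803), and gave 2.10 in DSM+MM3, 2.13 in DSM3, 2.67 in MM14 and 2.05 in VML14. Slc16a10 (TAT1, a carrier of aromatic amino acids) was lower in MM3 (-1.00 ± 0.381). Slc16a13 was higher in DSM3 (1.16 ± 0.427) and MM3 (1.35 ± 0.425), and Slc16a11, which overlaps it, was lower in DSM14 (-1.56 ± 0.400), so the counts of each may hold reads of the other. Slc16a6, averaging 12.1 CPM, lay between 0.01 and 0.41, and Slc16a4 and Slc16a12 also passed nowhere.

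Of the 18 Slc3a and Slc7a genes, 4 were higher in DSM+MM14, 3 in DSM14 and 0 in MM14 and VML14, and 3 in DSM+MM3, 4 in DSM3, 6 in MM3 and 3 in VML3. The higher shares of all transcripts were 14.6% in DSM+MM14, 9.49% in DSM14, 0.0109% in MM14 and 0.503% in VML14. At 3 DPI they were 16.3% in DSM+MM3, 18.2% in DSM3, 20.1% in MM3 and 13.8% in VML3. Whether the family departs from these shares was not tested. Slc7a5 (LAT1, the light chain that takes up leucine and other large neutral amino acids) had log2 fold changes of 3.27 in DSM+MM14, 3.24 in DSM14, 2.02 in MM14 and 2.48 in VML14, and of 4.19 in DSM+MM3, 4.35 in DSM3, 4.38 in MM3 and 4.04 in VML3 (SEs 0.666 to 0.745). It was higher in DSM+MM14, DSM14 and all 4 groups at 3 DPI, and its adjusted p was 0.342 in MM14 and 0.0982 in VML14. Slc7a7 (y+LAT1, the light chain that exports arginine and lysine and is abundant in macrophages) was higher in the same 6 comparisons, at 2.43 in DSM+MM14, 1.80 in DSM14, 3.10 in DSM+MM3, 3.26 in DSM3, 3.30 in MM3 and 2.94 in VML3, with 0.64 in MM14 and 0.70 in VML14 (SEs 0.483 to 0.517). Slc7a8 (LAT2, a further large neutral amino acid exchanger) was higher in DSM+MM3 (1.14), DSM3 (1.08), MM3 (1.05) and VML3 (0.81), and its values at 14 DPI were 0.30 in DSM+MM14, -0.12 in DSM14, -0.22 in MM14 and -0.44 in VML14 (SEs 0.249 to 0.255).

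Slc7a11 (xCT, which imports cystine for glutathione synthesis in exchange for glutamate) had the highest fitted value among the transporters in each group at 14 DPI. Its log2 fold changes were 9.12 ± 1.62 in DSM+MM14, 6.45 ± 1.74 in DSM14, 5.58 ± 1.84 in MM14 and 3.39 ± 2.29 in VML14, with adjusted p of 0.000555, 0.0181, 0.279 and 0.531 in that order. At 3 DPI they were 3.41 ± 1.33 in DSM+MM3, 4.08 ± 1.30 in DSM3, 3.36 ± 1.33 in MM3 and 3.17 ± 1.34 in VML3, and DSM3 (adjusted p = 0.0231) and MM3 (0.0491) passed. The gene averaged 3.78 CPM, and for a transcript so low in uninjured muscle the fitted size depends on the prior count that edgeR adds. Slc7a10 (Asc-1, a small neutral amino acid exchanger known from brain and from fat cells) was higher in DSM+MM14 (3.44 ± 1.07, adjusted p = 0.0258), gave 1.23 in DSM14, -0.52 in MM14 and 0.24 in VML14, and averaged 0.649 CPM. It overlaps Lrp3, which gave 1.92 in DSM+MM14. The adipocyte markers Adipoq (3.62), Plin1 (3.76), Lep (2.78) and Fabp4 (0.78) were higher in that comparison and passed in none of the other 7, and the part of fat cells in the Slc7a10 value was not tested. The cationic amino acid carrier Slc7a3, at 0.311 CPM, passed in MM3 (adjusted p = 0.0472), and no fold is given because the residual degrees of freedom (16.4 beside 26.4 for most transcripts) are those of a fit in which groups had no counts at all.

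Lower values in these families were mostly called in MM3. Slc3a1 (rBAT, the heavy chain of the cystine and dibasic amino acid carrier of kidney) was lower in MM3 (-1.11 ± 0.362), at 25.6 CPM, and overlaps Prepl, which gave -0.52 there, so its counts are uncertain. The heavy chain that LAT1, LAT2, y+LAT1 and xCT need, Slc3a2 (4F2hc or CD98), had a transcript row lower in DSM+MM14 (-1.28 ± 0.425) and MM3 (-1.21 ± 0.421), and its other row was higher in DSM+MM3 (0.90 ± 0.296, adjusted p = 0.0299). The rows averaged 2.41 and 2.17 CPM and went opposite ways, and reads on exons shared by both transcripts may be counted for neither, so no direction is given for the gene. Slc7a2 (CAT2, an arginine carrier) was lower in MM3 (-1.72 ± 0.637) on a row that averaged 0.658 CPM, while its other row gave -0.30 there, which leaves the gene uncertain in the same way. Slc7a6 (y+LAT2) was higher in MM3 (0.50 ± 0.186) and its neighbour Slc7a6os lower (-0.46 ± 0.165). Slc7a4 passed nowhere.

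Sodium-coupled carriers of neutral amino acids in the Slc1a family rose beside LAT1. Slc1a5 (ASCT2, which takes up glutamine) had log2 fold changes of 2.91 in DSM+MM14, 2.26 in DSM14, 1.24 in MM14 and 1.53 in VML14, and of 3.12 in DSM+MM3, 3.00 in DSM3, 2.80 in MM3 and 2.49 in VML3 (SEs 0.538 to 0.553). It was higher in DSM+MM14 (adjusted p = 0.000732), DSM14 (0.00973) and all 4 groups at 3 DPI. Slc1a4 (ASCT1, a serine and alanine exchanger) gave 3.42 in DSM+MM14, 2.25 in DSM14, 2.05 in MM14 and 2.05 in VML14, and 3.39 in DSM+MM3, 3.02 in DSM3, 3.07 in MM3 and 3.17 in VML3 (SEs 0.746 to 0.775), and of these DSM14 (adjusted p = 0.0594), MM14 (0.359) and VML14 (0.183) missed the threshold. Among the glutamate carriers, Slc1a1 (EAAC1) was lower in DSM+MM3 (-1.29 ± 0.391), DSM3 (-1.02 ± 0.382) and MM3 (-1.15 ± 0.383), where the overlapping Spata6l gave -0.48, -0.55 and -0.62. Slc1a7 (EAAT5), at 0.976 CPM, was higher in DSM+MM14 (2.60 ± 0.554) and DSM14 (2.10 ± 0.567). It gave a similar 1.99 ± 0.578 in MM14, not called, and -0.65 ± 0.742 in VML14. Slc1a2, Slc1a3 and Slc1a6 averaged at most 0.175 CPM, and the several rows of Slc1a2 and Slc1a3 may share exons, which leaves these levels uncertain.

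The Slc38a family, which moves glutamine and small neutral amino acids with sodium, held both directions. Slc38a2 (SNAT2, which is induced when amino acids are short) was lower in all 4 groups at 3 DPI, at -1.02 in DSM+MM3, -0.81 in DSM3, -1.03 in MM3 and -0.83 in VML3, and in DSM14 (-0.90), with -0.65 in DSM+MM14, -0.28 in MM14 and -0.62 in VML14 (SEs 0.263 to 0.268). Slc38a3 (SNAT3, a glutamine carrier of liver and muscle) was lower in DSM3 (-1.66) and MM3 (-2.51), and gave -1.18 in DSM+MM3, -1.39 in VML3, and -0.69 in DSM+MM14, -0.52 in DSM14, 0.06 in MM14 and 0.08 in VML14 (SEs 0.574 to 0.630). Slc38a4 (SNAT4, of liver and muscle) was lower in DSM+MM14 (-1.07 ± 0.309) and DSM14 (-1.10 ± 0.310), and lay between -0.74 and -0.47 in the other 6 comparisons.

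Slc38a6 (SNAT6, a little studied member) had log2 fold changes of 0.94 in DSM+MM14, 0.24 in DSM14, -0.03 in MM14 and -0.60 in VML14, and of 1.68 in DSM+MM3, 1.79 in DSM3, 1.92 in MM3 and 1.60 in VML3 (SEs 0.338 to 0.356), with calls in the 4 groups of 3 DPI. It overlaps Trmt5 in the annotation, which was not analysed here. The lysosomal arginine sensor Slc38a9 was higher in DSM3 (0.61 ± 0.177), MM3 (0.72 ± 0.177) and VML3 (0.62 ± 0.178), and Slc38a7 (SNAT7, which exports glutamine from lysosomes) in MM3 (0.47 ± 0.175). Slc38a1 (SNAT1) passed nowhere and stayed between -0.37 and 0.30. In all, 15 transporters averaged under 1 CPM and passed in no comparison, among them Slc38a5, Slc38a8, Slc7a9 and Slc7a12 to Slc7a15.

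**Figure D4:**
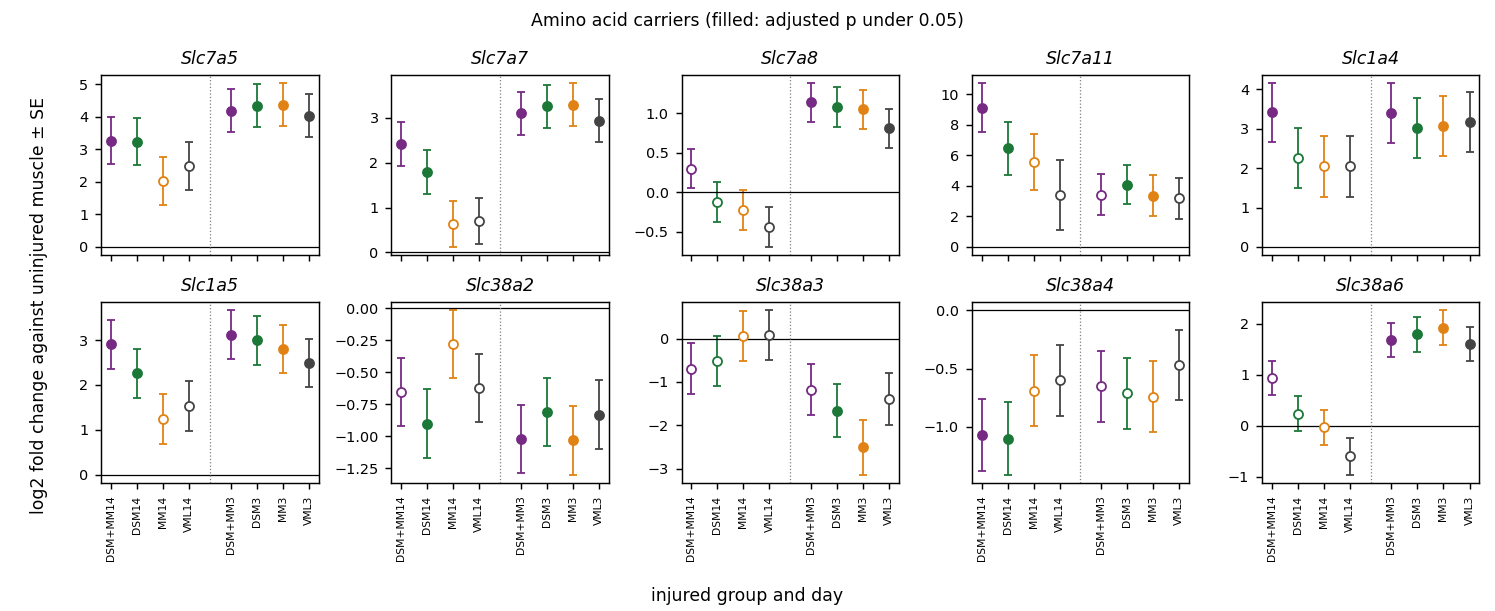
Log2 fold change against uninjured muscle with its SE for 10 amino acid carriers in the 8 injured groups, 14 DPI left of the dotted line and 3 DPI right of it, filled at an adjusted p under 0.05. Slc7a5, Slc7a7, Slc1a4 and Slc1a5 are filled in all 4 groups at 3 DPI and in DSM+MM14, Slc7a11 reaches 9.12 in DSM+MM14, and all values of Slc38a2 and Slc38a4 lie below 0.

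The promoters of Slc2a1, Slc7a5 and Slc1a4 are shown because these 3 carriers of glucose, leucine and serine were higher in all 4 groups at 3 DPI and again in DSM+MM14, and because their start regions hold letters of a hypoxia or amino acid response element. Each runs from 250 bases before to 50 bases after the gene start in RefSeq, build GRCr8, and is written 5′ to 3′ on the gene's strand. Capitals mark the hypoxia response element core ACGTG and the ATF4 composite element TGATGNAA, each on either strand, and overlapping matches run together. Slc2a1 is at chr5:138002272-138002571 on the plus strand, Slc7a5 at chr19:66872363-66872662 on the minus strand and Slc1a4 at chr14:98761513-98761812 on the minus strand.
Slc2a1: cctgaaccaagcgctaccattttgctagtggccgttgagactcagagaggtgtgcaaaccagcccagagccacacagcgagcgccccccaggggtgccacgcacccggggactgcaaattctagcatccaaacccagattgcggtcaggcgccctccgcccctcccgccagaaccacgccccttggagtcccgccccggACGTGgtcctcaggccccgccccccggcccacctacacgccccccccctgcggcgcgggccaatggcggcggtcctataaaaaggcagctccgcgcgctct
Slc7a5: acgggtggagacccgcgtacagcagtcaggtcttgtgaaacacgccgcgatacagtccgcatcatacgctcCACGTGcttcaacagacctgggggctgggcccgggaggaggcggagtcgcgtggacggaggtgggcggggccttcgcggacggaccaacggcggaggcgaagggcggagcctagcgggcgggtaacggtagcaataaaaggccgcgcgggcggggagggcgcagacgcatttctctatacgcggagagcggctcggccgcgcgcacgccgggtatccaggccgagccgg
Slc1a4: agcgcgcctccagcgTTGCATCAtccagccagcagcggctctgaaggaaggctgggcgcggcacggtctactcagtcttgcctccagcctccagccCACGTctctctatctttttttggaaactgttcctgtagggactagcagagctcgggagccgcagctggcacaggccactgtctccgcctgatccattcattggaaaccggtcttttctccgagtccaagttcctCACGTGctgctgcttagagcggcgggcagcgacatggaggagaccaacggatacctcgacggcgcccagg
The Slc2a1 sequence holds 1 match to ACGTG, that of Slc7a5 holds 2 on opposite strands at the same palindrome, and that of Slc1a4 holds 3 matches to ACGTG and 1 to TGATGNAA. RefSeq sequences were matched for 42 of the 58 genes. Over these, ACGTG was found in 15 genes (35.7%), beside 19.3% of all 33469 promoters of the same length. Slc2a9 and Slc7a7 were also higher in all 4 groups at 3 DPI and in DSM+MM14, and their sequences held no ACGTG. Slc16a1, which was lower in MM3, held a match. Whether matches go with the calls was not tested. TGATGNAA was in 2 genes (4.76%, beside 3.98% of all promoters), the antioxidant response element TGACNNNGC in 7 (16.7%, beside 12.1%), the myogenic E-box CAGCTG in 9 (21.4%, beside 15.1%) and the PU.1 element GAGGAAGT in 0, beside 2.42%. These shares count genes with a match in any of their promoters, while the shares of all are of promoters. Counted by the 46 promoters of the 42 genes, ACGTG was in 37.0%, TGATGNAA in 4.35%, TGACNNNGC in 15.2%, CAGCTG in 19.6% and GAGGAAGT in 0. A match is a run of letters and not a shown binding site.

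Whether repair with scaffold and graft gave other transporter levels than no repair was asked by the difference of the log2 fold changes in DSM+MM14 and VML14, in which the shared uninjured libraries cancel in part. None of the 38 transporters averaging at least 1 CPM passed an adjusted p of 0.05, and 8 of 10847 transcripts did (0.0738%). At an unadjusted p under 0.05 there were 13 transporters, 11 higher and 2 lower in DSM+MM14, in a comparison where 32.1% of all transcripts reached that level. Slc38a6 had the lowest adjusted p, with a difference of 1.54 (95% interval 0.78 to 2.30, adjusted p = 0.0565). Slc16a7 followed with 2.21 (0.95 to 3.47, adjusted p = 0.0591), then Slc2a9 with 1.64 (0.59 to 2.70) and Slc7a7 with 1.73 (0.62 to 2.83), both at an adjusted p of 0.0685. The Slc7a11 difference was 5.73 with an interval from 1.27 to 10.18 (adjusted p = 0.0896), and that of Slc2a1 was 1.73 (0.33 to 3.14, adjusted p = 0.0969). The 2 lower ones were Slc7a6os (-0.54, interval -0.91 to -0.18) and the row of higher average CPM of Slc3a2 (-1.24, interval -2.15 to -0.33), a gene whose other row gave 0.47 in DSM+MM14 and 0.81 in VML14 and for which no direction is given. The methods and the labels give different numbers of uninjured libraries, and the degrees of freedom of the fit go with the 4 of the labels. They are 26.4 for most transcripts and 6.36 for Slc1a3, whose fold change departs from 0 in DSM3 alone. If 3 uninjured libraries are nonetheless assumed, 5 transporters passed, and the share of all transcripts that did is not given here. They were Slc38a6 (adjusted p = 0.0277), Slc16a7 (0.0314), Slc2a9 (0.0398), Slc7a7 (0.0398) and Slc7a6os (0.0408). For carriers that did not reach an unadjusted p of 0.05 the intervals were wide, as for Slc7a5 at 0.79 (-0.80 to 2.38).

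**Figure D5:**
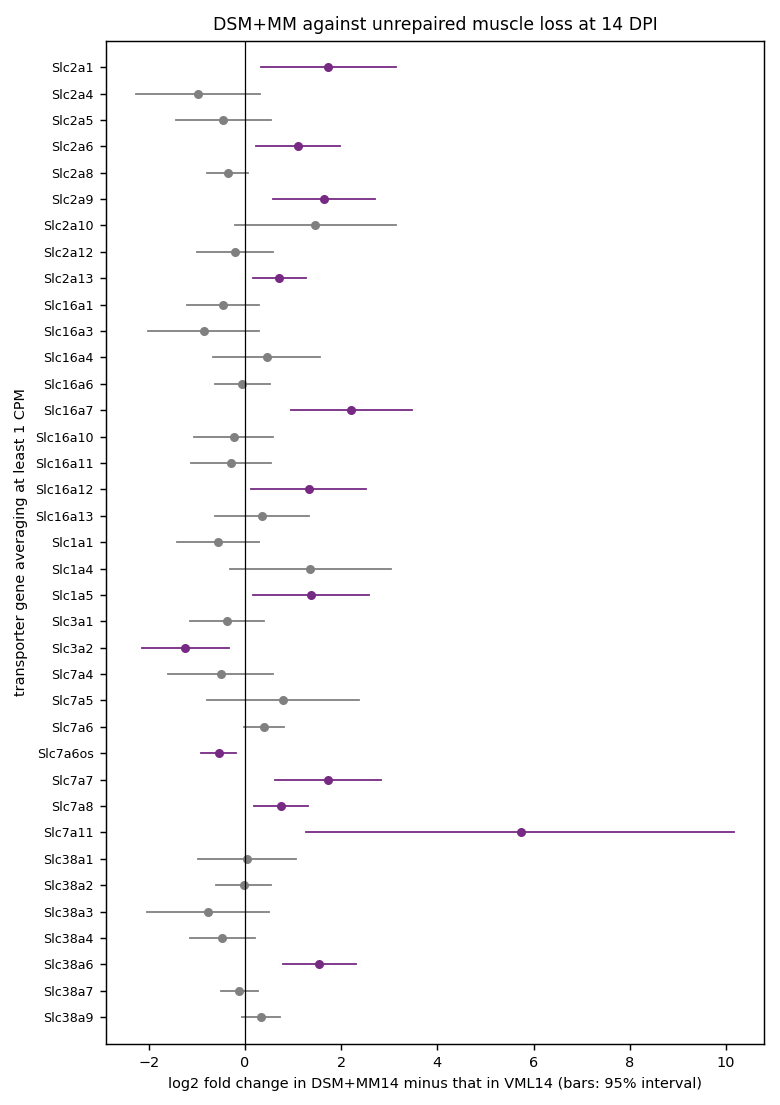
Difference between the log2 fold change in DSM+MM14 and that in VML14 for 37 transporters averaging at least 1 CPM, with 95% intervals, in purple where the interval leaves out 0. Of the 13 purple intervals 11 lie above 0, and none of the differences passed after adjustment over all transcripts.

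The other pairs of repairs gave no transporter past the adjusted threshold either. Between DSM+MM14 and MM14, 9 of the 38 transporters had an unadjusted p under 0.05, beside 14.1% of all transcripts, and the lowest adjusted p was 0.209. Of these, 8 were higher in DSM+MM14, among them Slc16a7 (difference 2.29, interval 1.02 to 3.55), Slc2a1 (2.03, 0.63 to 3.44) and Slc7a7 (1.79, 0.68 to 2.90). The 1 lower was Slc1a1 (-1.12, -1.96 to -0.28). Between DSM14 and VML14 there were 7, beside 13.8%, with 3 higher and 4 lower in DSM14. Between DSM14 and MM14 there were 5, beside 4.40%, with 2 higher and 3 lower in DSM14. Slc16a7 was higher in both (1.42 and 1.49), and Slc16a11 was lower in both (-1.01 and -1.44). DSM+MM14 set against DSM14 gave 0 transporters at an unadjusted p under 0.05, beside 3.12% of all transcripts, and MM14 against VML14 also gave 0, beside 6.34%. At 3 DPI, DSM+MM3 differed from MM3 for 4 transporters at that level, beside 4.41% of all transcripts. Of these, 3 were higher in DSM+MM3, with Slc2a1 at 1.81 (0.42 to 3.19) and Slc16a3 at 1.55 (0.34 to 2.76), and 1 was lower, Slc38a9 at -0.42 (-0.81 to -0.03). Slc2a1 was also the only transporter at that level between DSM+MM3 and VML3 (1.85, 0.46 to 3.23), beside 2.39% of all transcripts. The remaining 4 pairs at 3 DPI had none, where only 0.848% to 1.05% of all transcripts reached that level, so the absence says little about transporters. Shares below the p threshold of 0.05 itself may mean that the test is too strict there, which was not tested.

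Between the days, the departure from uninjured muscle was compared within each treatment as the log2 fold change at 14 DPI minus that at 3 DPI, and no transporter passed after adjustment. In MM, 14 of the 38 transporters had an unadjusted p under 0.05, beside 30.0% of all transcripts, and 7 were higher and 7 lower at 14 DPI. Slc38a6 differed by -1.95 (interval -2.95 to -0.95, adjusted p = 0.0740), Slc7a7 by -2.66 (-4.12 to -1.21) and Slc7a8 by -1.27 (-2.00 to -0.54), while Slc38a3 differed by 2.57 (0.82 to 4.32), Slc2a4 by 2.08 (0.33 to 3.84) and Slc16a3 by 1.69 (0.10 to 3.28). In VML there were 6, all lower at 14 DPI, beside 20.1% of all transcripts, with Slc38a6 at -2.20 (-3.21 to -1.19) and Slc7a7 at -2.24 (-3.69 to -0.78). In DSM there were 5, all lower at 14 DPI, beside 6.52%, with Slc7a8 at -1.21 (-1.94 to -0.48). In DSM+MM there were 4, beside 6.08%, and 3 of them were higher at 14 DPI, namely Slc2a13 at 1.35 (0.62 to 2.07), Slc16a7 at 2.42 (0.93 to 3.91) and Slc7a11 at 5.71 (1.41 to 10.02), while Slc7a8 was lower at -0.84 (-1.56 to -0.11).

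Genes that work with these carriers were counted from a list of 18 partners and regulators of uptake, 15 of which had a row. Higher ones numbered 4 in DSM+MM14, 4 in DSM14, 0 in MM14 and 1 in VML14, and 4 in DSM+MM3, 6 in DSM3, 6 in MM3 and 3 in VML3, and lower ones 0 at 14 DPI and 1, 4, 6 and 2 at 3 DPI in the same order of groups. Over all transcripts the higher shares were 14.6%, 9.49%, 0.0109% and 0.503% at 14 DPI and 16.3%, 18.2%, 20.1% and 13.8% at 3 DPI, and the lower shares at 3 DPI 5.85%, 9.33%, 16.2% and 2.52%. Embigin (Emb), a chaperone that carries MCT proteins to the cell surface, was higher in 7 of the 8 comparisons, at 5.47 in DSM+MM14, 6.12 in DSM14, 4.89 in VML14, 4.75 in DSM+MM3, 4.48 in DSM3, 4.54 in MM3 and 4.40 in VML3, with 4.14 in MM14. The related chaperone basigin (Bsg) lay between -0.15 and 0.46 with no call. Among the hexokinases that trap glucose, Hk3, the form of myeloid cells, was higher by 6.99 in DSM+MM14, 6.20 in DSM14, 6.40 in DSM+MM3, 5.66 in DSM3, 5.82 in MM3 and 5.04 in VML3, and Hk1 by 1.08 to 1.60 in the same comparisons, while the muscle form Hk2 stayed between -0.50 and 0.13. Txnip, which restrains GLUT1 at the cell surface, was lower in DSM3 (-1.51), MM3 (-2.02) and VML3 (-1.42), the mitochondrial pyruvate carrier subunits Mpc1 (-1.42 and -1.88) and Mpc2 (-1.42 and -1.95) in DSM3 and MM3, and Atf4, a regulator of amino acid carriers, in all 4 groups at 3 DPI (-1.03 in DSM+MM3, -1.30 in DSM3, -1.70 in MM3 and -1.22 in VML3). The regulators called higher were Myc in DSM+MM14 (1.87), DSM14 (2.00), DSM+MM3 (1.97), DSM3 (1.94) and MM3 (1.54), the hypoxia factor Hif1a in DSM3 (1.84) and MM3 (1.30), and the antioxidant response factor Nfe2l2 in DSM3 (0.59) and MM3 (0.51).

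Enzymes that use the cargo were counted from a list of 14 genes. Higher ones numbered 3 in DSM+MM14, 2 in DSM14, 5 in DSM+MM3, 5 in DSM3, 4 in MM3 and 3 in VML3, and 0 in MM14 and VML14. Lower ones numbered 1 in DSM+MM3, 4 in DSM3, 6 in MM3 and 0 in VML3, and 0 at 14 DPI. Beside these, 14.6% of all transcripts were higher in DSM+MM14, 9.49% in DSM14, 16.3% in DSM+MM3, 18.2% in DSM3, 20.1% in MM3 and 13.8% in VML3, and 5.85%, 9.33%, 16.2% and 2.52% were lower in the groups of 3 DPI in that order. Bcat1, which starts the breakdown of the leucine that LAT1 imports, was higher at 5.33 in DSM+MM14, 4.42 in DSM14, 5.61 in DSM+MM3, 5.56 in DSM3, 5.37 in MM3 and 4.93 in VML3, and gave 2.83 in MM14 and 2.95 in VML14. The form of muscle mitochondria, Bcat2, was lower in DSM3 (-1.31) and MM3 (-1.54). Arginase 1 (Arg1) was higher at 3.72 in DSM+MM14, 7.27 in DSM+MM3, 6.50 in DSM3, 4.60 in MM3 and 4.27 in VML3, and the inducible nitric oxide synthase Nos2, which uses the same arginine, in DSM+MM3 (3.98) and DSM3 (4.33). Gclc, which joins the cysteine that xCT provides to glutamate, was higher in all 4 groups at 3 DPI, by 0.95 to 1.12, and gave 0.04 to 0.45 at 14 DPI, when Slc7a11 was called in DSM+MM14 and DSM14.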

How the data were processed

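RNA of 32 libraries in 10 groups was sequenced by the authors on BGISEQ-500, aligned to Rnor_6.0 with STAR, counted per RefSeq transcript with featureCounts, and normalised by TMM and tested in edgeR, with versions and strand use not given in the sources used here. The log2 values deposited by the authors are fold changes against uninjured muscle and average log2 CPM. The score values deposited by the authors are F statistics. The p-values deposited by the authors come with an FDR equal to the Benjamini-Hochberg adjustment over 18281 transcripts (largest gap 3.8e-14). These columns are the authors' own comparisons, used because no values of single libraries were at hand, and tests planned on libraries were not run. The blocks headed MM4 and DSM were read as DSM3 and DSM14. Low-count transcripts share identical fold changes within a day (109 to 188 rows in 12 pairs of comparisons) and across days in 0 rows of 16 pairs.

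RefSeq accessions gave symbols for 17359 rows through the GRCr8 gene table, and each gene was read from its row of highest average CPM. Symbols and overlapping neighbours came from that table, whose build is not that of the counts. The SE is the absolute log2 fold change over the square root of F. Differences were tested on a t distribution with up to 26.4 degrees of freedom over transcripts averaging at least 1 CPM and adjusted by Benjamini-Hochberg, with an uninjured share of 0.429 of the variance taken out within a day. That share follows from the numbers of libraries and was the same for every transcript. For transcripts low in uninjured muscle the true share may differ, so their SEs and intervals are approximate, which was not tested. The test was also run on simulated fold changes drawn with the same SEs and the same uninjured share, so the simulation cannot check either of them. Transporters averaging at least 10 CPM or past an adjusted p of 0.05 are described one by one, except 1 that is counted but not reported here. The genes and lists were chosen with earlier results of these data known. Python 3.11.15, numpy 2.4.6, pandas 2.3.3, scipy 1.17.1 and matplotlib 3.10.9 were used.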

Additional observations from a re-analysis of the deposited data

How the results depend on the processing

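Directions against uninjured muscle are the same under every call rule, since only the threshold moves. With an absolute log2 fold change over 1.5 also required, lower transporters numbered 0 in DSM+MM14, 1 in DSM14, 0 in DSM+MM3, 2 in DSM3, 4 in MM3 and 1 in VML3. That rule removed 38 single calls in all, higher ones among them, such as Slc7a8 in all 4 groups at 3 DPI and Slc2a13 in DSM+MM14 and DSM14. A fold change over 1.5 removed 3 single calls. Adjusting over transcripts of at least 1 CPM only gave 4 lower transporters in DSM+MM3 and 4 in VML3, and 1 higher in VML14 (Slc2a10), and added 15 calls in all, among them Slc2a1 and Slc1a4 in DSM14. The shares of all transcripts called under these other rules are not given here, so these counts cannot be set beside them. Counting every row of a gene moved no count past 1.5 times. Of the differences, only that of DSM+MM14 and VML14 moved, and the cause was not tested. It moved to 1 transporter (Slc38a6, adjusted p = 0.0495) over transcripts of at least 10 CPM. It moved to 5 with 3 uninjured libraries, a number that the degrees of freedom of the fit do not go with. The shares of all transcripts that passed under these 2 settings are not given here. In the main setting 32.1% of all transcripts had an unadjusted p under 0.05 in that comparison. The family medians of members averaging at least 10 CPM moved by more than a typical SE in 20 of 40 cases. No paired analysis was possible because the table holds comparisons and no values of single libraries, and leaving out a replicate was not run for the same reason. Counts per library, and so the precision that depth gives, were not analysed here.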

Other observations

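Other solute carriers of amino acids, outside the families above, were mostly higher at 3 DPI. Of 11 listed carriers with a row, 7 were higher and 2 lower in DSM+MM3, 8 and 2 in DSM3, 8 and 2 in MM3 and 6 and 1 in VML3, and at 14 DPI 3 were higher and 1 lower in DSM+MM14, 2 and 1 in DSM14 and 0 in MM14 and VML14. Over all transcripts 16.3% were higher and 5.85% lower in DSM+MM3, 18.2% and 9.33% in DSM3, 20.1% and 16.2% in MM3, 13.8% and 2.52% in VML3, 14.6% and 1.81% in DSM+MM14 and 9.49% and 0.733% in DSM14. Slc15a3, a lysosomal peptide and histidine carrier of immune cells, had log2 fold changes of 2.22 in DSM+MM14, 1.63 in DSM14, 2.60 in DSM+MM3, 2.12 in DSM3, 2.09 in MM3 and 1.57 in VML3, all called. The proton-coupled carrier Slc36a4 was called in the same 6 comparisons, at 1.44 to 2.14, and the glycine carrier Slc6a9 was higher in all 4 groups at 3 DPI, at 1.48 in DSM+MM3, 1.60 in DSM3, 2.03 in MM3 and 2.25 in VML3. The taurine carrier Slc6a6 was higher in DSM+MM14 (1.06) and in all 4 groups at 3 DPI (1.09 to 1.40). Slc43a1 (LAT3), a large neutral amino acid carrier, was lower in 6 comparisons, by -0.79 in DSM+MM14, -1.03 in DSM14, -0.96 in DSM+MM3, -0.83 in DSM3, -1.31 in MM3 and -0.82 in VML3, while its relative Slc43a2 (LAT4) was higher in all 4 groups at 3 DPI (1.15 to 1.33). The creatine carrier Slc6a8 was lower in DSM+MM3 (-0.84), DSM3 (-0.81) and MM3 (-1.00).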
